A study of Bos taurus with 20 samples.

Results

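Levels of RNA from 10 genes of the Notch pathway were compared between adipogenic (A) and non-adipogenic (N) clones of bovine mesenchymal stem cells (MSCs). The genes were the ligands JAG1, JAG2 and DLL1, the receptors NOTCH1, NOTCH2 and NOTCH3, and the target genes HES1, HEY1, HEY2 and HEYL. They were taken by symbol from the table of 33063 named genes, in which each symbol had 1 row. Of the 10, 8 passed edgeR's default filter on low counts and were tested, whereas JAG2 and HEY2 did not pass it.

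The MSCs came from visceral fat of Holstein Friesian x Aberdeen Angus calves aged 1 to 6 months. Each clone was grown from 1 sorted cell in medium with FBS and bFGF, and 1 library per clone was made from total RNA. A clones were those with the strongest staining of lipid after a differentiation test, N clones were those without staining, and both groups were sequenced undifferentiated. Animals 17 and 20 gave 1 A and 1 N clone each, and animals 22 and 23 gave 4 A and 4 N clones each, so that 10 A clones stood against 10 N clones. Clones are named by animal and clone number, as in N clone 22-18. No treatment or engineered genetic change separated the groups, which were defined by how each clone behaved in culture. Clones of 1 animal share a genome, and the tests measured the spread between clones around a mean for each animal.

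Notch signalling passes between cells in contact. A ligand on 1 cell, of the Jagged or Delta family, binds a Notch receptor on its neighbour, the receptor is cut, and its inner part moves to the nucleus, where with RBPJ and Mastermind proteins it switches on target genes such as those of the HES and HEY families, which encode transcriptional repressors. In fat tissue and in MSCs the pathway is known for its influence on the choice between self-renewal and differentiation, including differentiation into adipocytes. NOTCH3 and JAG1 are also well known from the mural cells of blood vessels. RNA levels of these genes do not measure receptor cleavage.

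Libraries of A clones held 14615493 to 29185355 counts on named genes and those of N clones 14908802 to 43111345, the deepest being N clone 22-18. N clones 22-5 and 22-9 stood apart in the sum of 8 mesothelial markers, which was 9198 and 6512 CPM there and at most 276.5 CPM in the other N clones. By mean over N clones, most of this sum lay in the keratins KRT8, KRT19 and KRT18 (751, 407 and 170 CPM). UPK3B reached at most 14.9 CPM in N clones, and CALB2 was at 0 in all of them. CPM are counts scaled to library size and TMM factors, and log2 fold changes are of A over N clones, from edgeR's quasi-likelihood test with animal as a block and Benjamini-Hochberg adjustment over 12900 genes. A gene was called at an adjusted p under 0.05. CPM is not divided by gene length, so levels are compared between clones and not between genes. In these bulk libraries, fewer cells that express a gene and less RNA per cell cannot be told apart.

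Of the 8 genes tested, NOTCH3, JAG1 and NOTCH1 rose in A clones and 0 fell. The called share of 37.5% compares with 20.6% of all genes called in either direction, and the 3 higher calls compare with 10.3% of all genes called higher. JAG1 and NOTCH3 also exceeded a 2-fold change, which 3.95% of all genes did in the same direction. The 8 genes had a median log2 fold change of 0.89, beside -0.01 over all genes tested. No target gene tested passed the threshold. Without N clones 22-5 and 22-9, a fit added after the values were seen, NOTCH3 (2.57, adjusted p = 0.0135) and JAG1 (1.60, adjusted p = 0.0145) were called and NOTCH1 was not (0.83, adjusted p = 0.0544). Since the 10 genes were chosen with results of these data known, these shares describe the genes and do not test them as a group.

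**Figure D1:**
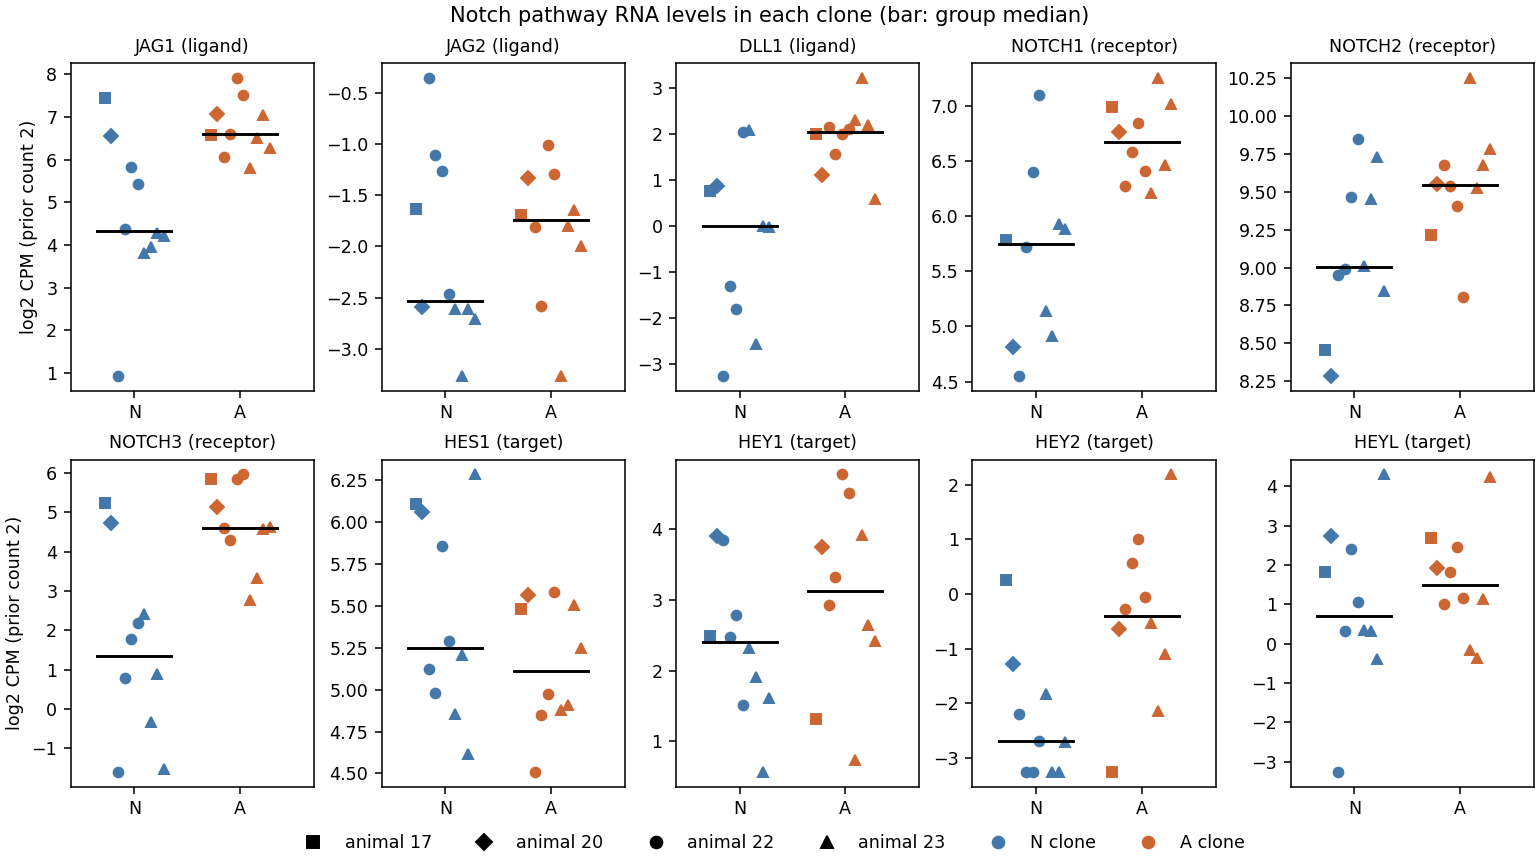
Level of each gene in each clone, as log2 CPM with a prior count of 2 on the vertical axis, with N clones on the left, A clones on the right, 1 symbol shape per animal and a bar at the group median. NOTCH3 and JAG1 were low in the N clones of animals 22 and 23 and high in both N clones of animals 17 and 20, and the scales differ between genes.

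JAG1, a transmembrane ligand of Notch receptors, had a median of 20.0 CPM in N clones (1.81 to 172.8) and of 96.4 CPM in A clones (55.9 to 240.9). Its mean was 117.5 ± 57.5 CPM in A clones and 45.6 ± 52.2 CPM in N clones (SD, n = 10 each). The groups overlapped, as only 2 A clones exceeded all N clones. The fitted log2 fold change was 1.90 (SE 0.487, adjusted p = 0.0135 by edgeR's quasi-likelihood test), a 3.73-fold higher level with animal as a block. The mean CPM of A clones was 2.58 times that of N clones.

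The N clones with most JAG1 were the single ones of animals 17 and 20. N clone 17-23 held 172.8 CPM and N clone 20-15 held 93.7 CPM, whereas the other N clones lay between 1.81 and 57.0 CPM. In animal 22, N clones ranged from 1.81 to 57.0 CPM and A clones from 66.7 to 240.9 CPM. In animal 23, N clones ranged from 13.9 to 19.3 CPM and A clones from 55.9 to 132.5 CPM. Every A clone was thus above every N clone of its own animal in both, while in animal 17 the A clone, at 96.0 CPM, was below its N clone. Animals 22 and 23 had an A minus N of 2.88 and 2.35 on the log2 scale, animal 20 had 0.52 and animal 17 had -0.85.

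The call for JAG1 held with each of the 20 clones left out in turn (log2 fold change 1.72 to 2.15). It was lost without animal 22 (1.62, adjusted p = 0.0551), without animal 23 (1.52, adjusted p = 0.294), and in a fit with no animal block (1.37, adjusted p = 0.0844). With counts summed per animal and condition, a fit that called 0 of all genes, JAG1 had 1.04 (adjusted p = 0.450).

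DLL1, a Delta-type ligand, was low in both groups. It had a median of 0.887 CPM in N clones (0 to 4.13) and of 4.04 CPM in A clones (1.39 to 9.19). The 5 highest A clones exceeded all N clones, and the mean log2 level was higher in A clones in 4 of 4 animals. The log2 fold change of 1.53 (SE 0.665, adjusted p = 0.107) did not pass the threshold. The N clones lay far apart, with 22-18 and 23-10 at 4.02 and 4.13 CPM and the other 8 at 1.72 CPM or less. Without N clone 22-18 the log2 fold change was 2.29 (adjusted p = 0.0239).

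JAG2, the other Jagged ligand, had between 0 and 12 counts in a clone. Its median was 0.0689 CPM in N clones, where it ranged from 0 to 0.678, and 0.194 CPM in A clones, where it ranged from 0 to 0.394. It had 0 counts in 1 N clone and 1 A clone. With no filter on low counts its log2 fold change was 0.37 (SE 0.544, adjusted p = 0.677), and a difference was not detectable at this depth. That fit called 11.8% of the genes it tested.

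NOTCH3 had the largest log2 fold change of the 8 genes tested. This receptor is known for its role in vascular smooth muscle cells and pericytes. It had a median of 2.55 CPM in N clones (0.226 to 37.6) and of 24.4 CPM in A clones (6.75 to 62.4). The mean was 32.2 ± 20.4 CPM in A clones and 8.17 ± 13.0 CPM in N clones (SD, n = 10 each). The groups overlapped, with 3 A clones past the highest N clone. NOTCH3 rose by a log2 fold change of 2.99 (SE 0.635, adjusted p = 0.00521 by edgeR's quasi-likelihood test), a 7.95-fold higher level with animal as a block. The mean CPM of A clones was 3.94 times that of N clones.

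As for JAG1, the N clones with most NOTCH3 were 17-23, at 37.6 CPM, and 20-15, at 26.5 CPM, while the other 8 N clones lay between 0.226 and 5.25 CPM. In animal 22, N clones ranged from 0.226 to 4.48 CPM and A clones from 19.5 to 62.4 CPM. In animal 23, N clones ranged from 0.243 to 5.25 CPM and A clones from 6.75 to 24.6 CPM. The A clones were above the N clones of their own animal in all 4 animals, by a mean of 4.38 and 3.46 on the log2 scale in animals 22 and 23, and by 0.63 and 0.41 in animals 17 and 20. In single N clones NOTCH3 rested on few reads, with as few as 4 counts in N clone 22-5 and 5 counts in N clone 23-74.

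The call for NOTCH3 held with each of the 20 clones left out in turn (log2 fold change 2.77 to 3.41). It was lost without animal 22 (2.19, adjusted p = 0.0870), without animal 23 (2.95, adjusted p = 0.122), and with no animal block (1.98, adjusted p = 0.0794). With counts summed per animal and condition, NOTCH3 had 1.98 (adjusted p = 0.311), in a fit that called 0 of all genes.

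Of the 8 genes tested, JAG1 and NOTCH3 had every A clone above every N clone in both animal 22 and animal 23. Over all genes tested, 2.42% did.

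NOTCH1, a receptor known for its role in T cells and leukaemia, showed a smaller difference that was spread over all animals. It had a median of 53.8 CPM in N clones (23.4 to 137.6) and of 102.1 CPM in A clones (74.1 to 152.6). The mean was 105.3 ± 25.7 CPM in A clones and 56.6 ± 34.1 CPM in N clones (SD, n = 10 each), and 1 A clone exceeded all N clones. NOTCH1 rose by a log2 fold change of 0.95 (SE 0.282, adjusted p = 0.0265 by edgeR's quasi-likelihood test), a 1.93-fold higher level.

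Within animals, A minus N for NOTCH1 was 1.21, 1.95, 0.58 and 1.27 on the log2 scale in animals 17, 20, 22 and 23. In animal 23 the A clones, from 74.1 to 152.6 CPM, lay above the N clones, from 30.1 to 60.7 CPM. In animal 22 they overlapped, with N clone 22-18 at 137.6 CPM above all 4 A clones. The call was lost without N clone 20-15 (log2 fold change 0.84, adjusted p = 0.0542) or without A clone 20-106 (0.84, adjusted p = 0.0542), the only clones of that animal, and without animal 23 (0.73, adjusted p = 0.329).

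NOTCH2, the remaining receptor of the set, had a median of 512.1 CPM in N clones (312.2 to 922.1) and of 748.3 CPM in A clones (447.0 to 1218). Its mean log2 level was higher in A clones in 4 of 4 animals, by 0.76, 1.27, 0.04 and 0.55 in animals 17, 20, 22 and 23. The log2 fold change of 0.43 (SE 0.179, adjusted p = 0.0978) did not pass the threshold. It passed without N clone 22-18 (0.52, adjusted p = 0.0290) or without A clone 22-121 (0.51, adjusted p = 0.0397).

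**Figure D2:**
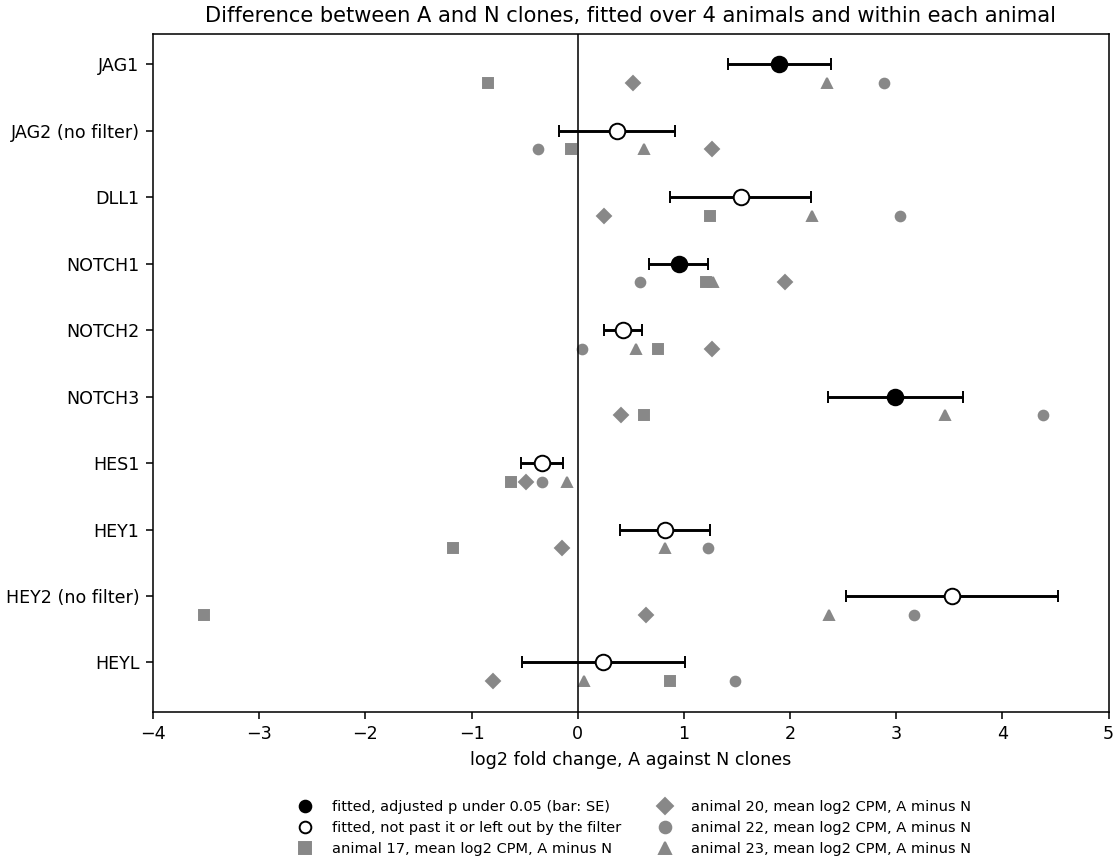
Log2 fold change of A over N clones for each gene. Black circles with SE bars are the fit over 20 clones, filled where the adjusted p was under 0.05, and grey symbols are A minus N of the mean log2 CPM within 1 animal. NOTCH1, NOTCH2, NOTCH3 and DLL1 lay above 0 in all 4 animals and HES1 lay below 0 in all 4. JAG2 and HEY2 come from the fit with no filter and are drawn open, although HEY2 passed the threshold in that fit.

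Of the 3 target genes tested, 0 passed the threshold. HES1, a repressor that Notch receptors and other pathways induce, had a median of 37.9 CPM in N clones (24.4 to 77.8) and of 34.6 CPM in A clones (22.7 to 47.9). Its mean log2 level was lower in A clones in 4 of 4 animals, but the log2 fold change of -0.33 (SE 0.198, adjusted p = 0.231) did not pass the threshold. The N clones with the highest HES1 levels were 23-74, 17-23 and 20-15, at 77.8, 68.8 and 66.6 CPM. These included both N clones with high JAG1 and NOTCH3, whereas 23-74 had 18.4 CPM of JAG1 and 0.243 CPM of NOTCH3. Over the 20 clones, the log2 CPM of HES1 had a Pearson's r of 0.213 with JAG1 and of 0.0397 with NOTCH3.

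HEY1, a repressor that can pair with HES proteins, had a median of 5.18 CPM in N clones (1.38 to 14.7) and of 8.70 CPM in A clones (1.57 to 27.1). The groups overlapped over most of their range, with only 3 A clones past the highest N clone. The log2 fold change was 0.82 (SE 0.427, adjusted p = 0.174). A minus N was 1.23 and 0.82 on the log2 scale in animals 22 and 23, but -1.17 and -0.15 in animals 17 and 20.

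HEY2, a HEY repressor known from vascular and cardiac development, was at or close to 0 in most N clones. The N clones of animals 22 and 23 held between 0 and 3 counts each, and N clones 17-23 and 20-15 held 20 and 5 counts. The 4 A clones of animal 22 held between 14 and 29 counts, and those of animal 23 held 2, 5, 9 and 122 counts. A clone 20-106 held 11 counts and A clone 17-57 held 0. In animal 22 every A clone was thus above every N clone, whereas in animal 17 the order was the other way.

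The median of HEY2 was 0.0498 CPM in N clones (0 to 1.09) and 0.656 CPM in A clones (0 to 4.47). With no filter on low counts HEY2 rose in A clones (log2 fold change 3.52, SE 0.999, adjusted p = 0.0293 by edgeR's quasi-likelihood test). The adjusted p lay between 0.0530 and 0.0632 when N clone 22-9, 23-22, 23-23 or 23-74 or A clone 23-108 was left out, was 0.0599 with no animal block and was 0.0872 without N clones 22-5 and 22-9. It was 0.348 without animal 22, 0.320 without animal 23 and 0.737 with counts summed per animal and condition. Of 14 alternatives other than leaving out 1 clone, 8 kept HEY2 past the threshold and 6 did not. The log2 fold change was 2.68 without A clone 23-108, which held 122 of the gene's counts.

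HEYL, a HEY family member expressed in mural cells, had a median of 1.58 CPM in N clones (0 to 19.7) and of 2.80 CPM in A clones (0.674 to 18.7). Single clones stood out in each group. N clone 23-74 held 405 counts and A clone 23-108 held 511 counts, both of animal 23, and the other 18 clones lay at 6.57 CPM or less. The log2 fold change was 0.24 (SE 0.771, adjusted p = 0.847), and it was -0.46 without A clone 23-108.

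The difference between A and N clones was also compared between animals 22 and 23, the animals with 4 clones per group. The interaction of condition and animal passed the threshold for 0 of the 8 genes by edgeR's quasi-likelihood test, beside 0.0310% of all genes. At an unadjusted p under 0.05 there were 0 of the 8, beside 9.06% of all genes. DESeq2 called 0 of the 8 and 121 of all genes, and 0 of the 8 had an unadjusted p under 0.05 there. With 8 genes, a count of 0 is close to these shares. In a fit of the interaction over all 4 animals, chosen after the values were seen, 0 of the 8 genes passed, beside 0.814% of all genes, and 0 had an unadjusted p under 0.05, beside 17.8% of all genes. The adjusted p of that interaction was 0.419 for NOTCH3 and 0.438 for JAG1. The single A and N clones of animals 17 and 20 leave this comparison little precision.

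JAG1 and NOTCH3 levels were alike across clones. Over the 20 clones their log2 CPM had a Pearson's r of 0.892 and a Spearman's rho of 0.892, and JAG1 stood at rank 5 of 12899 genes by likeness to NOTCH3. The clones share conditions and animals, which enter this value, and the pair was chosen after its values were seen, so it is a description only. Within A clones r was 0.723 and within N clones 0.833 (n = 10 each). N clone 22-5 had the lowest JAG1 and NOTCH3 levels, and r was 0.888 without it. N clones 22-5 and 22-9, with the large mesothelial sums, had less JAG1 (1.81 and 20.7 CPM) and less NOTCH3 (0.226 and 1.62 CPM) than the other N clones of animal 22. A clones 22-11 and 22-16 had mesothelial sums of 1095 and 939 CPM. They had less JAG1 (66.7 and 96.8 CPM) and less NOTCH3 (24.2 and 19.5 CPM) than the other A clones of that animal. With levels centred within animal and condition over the 16 clones of animals 22 and 23, r was 0.675 and rho was 0.597. Without the 2 clones farthest from the median of JAG1, N clones 22-5 and 22-17, r was 0.413.

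**Figure D3:**
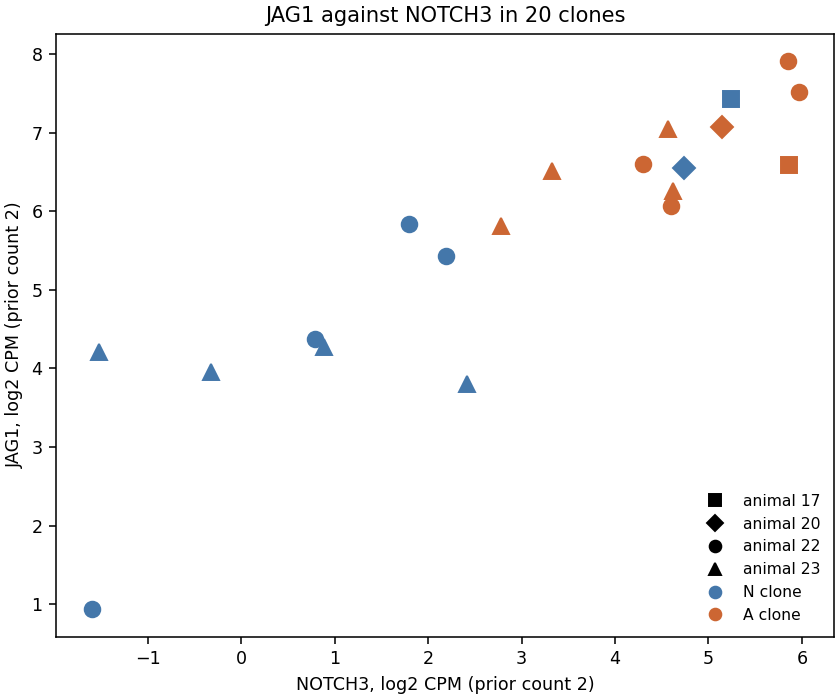
Level of JAG1 (vertical axis) against NOTCH3 (horizontal axis) in 20 clones, both as log2 CPM with a prior count of 2, with A and N clones in 2 colours and 1 symbol shape per animal. The N clones of animals 17 and 20 lie among the A clones, and N clone 22-5 lies lowest on both axes.

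The 5 genes most like JAG1 by Pearson's r of log2 CPM over 20 clones were LAMA4 (0.908), LOC100139325 (0.905), EDNRA (0.900), CGREF1 (0.899) and LOC100139345 (0.895), and NOTCH3 was at rank 7. LAMA4 encodes a laminin chain of basement membranes and EDNRA an endothelin receptor. The 5 most like NOTCH3 were F2RL2 (0.938), PLA2R1 (0.921), PODN (0.914), EPHX1 (0.895) and JAG1 (0.892). F2RL2 encodes a protease-activated receptor, PLA2R1 a phospholipase A2 receptor, PODN a small leucine-rich proteoglycan and EPHX1 an epoxide hydrolase. Other pairs of the set had lower r over the 20 clones, with 0.706 for DLL1 and NOTCH3, 0.678 for JAG1 and DLL1, and 0.655 for JAG1 and NOTCH1.

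Whether clones with more ligand or receptor RNA had more target RNA was tested for JAG1 and NOTCH3 against HES1, HEY1, HEY2 and HEYL, with log2 CPM centred within animal and condition over the 16 clones of animals 22 and 23. Of these 8 relations, 0 passed an adjusted p of 0.05 in a two-sided permutation test of Pearson's r or Spearman's rho within animal and condition, and 1 by r and 1 by rho had an unadjusted p under 0.05.

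JAG1 and HEYL had an r of 0.612 (permutation p = 0.0310, adjusted p = 0.248) and a rho of 0.5 (adjusted p = 0.235). That value rested on 2 clones, since r was 0.197 without N clones 22-5 and 22-17. It was 0.947 in animal 22 and 0.121 in animal 23. JAG1 and HES1 had an r of 0.371 (permutation p = 0.105, adjusted p = 0.421) and a rho of 0.515 (permutation p = 0.0332, adjusted p = 0.235), with an r of 0.473 without the same clones. NOTCH3 had an r of -0.06 with HES1 (adjusted p = 0.945 by permutation), -0.02 with HEY1, 0.174 with HEY2 and 0.278 with HEYL.

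**Figure D4:**
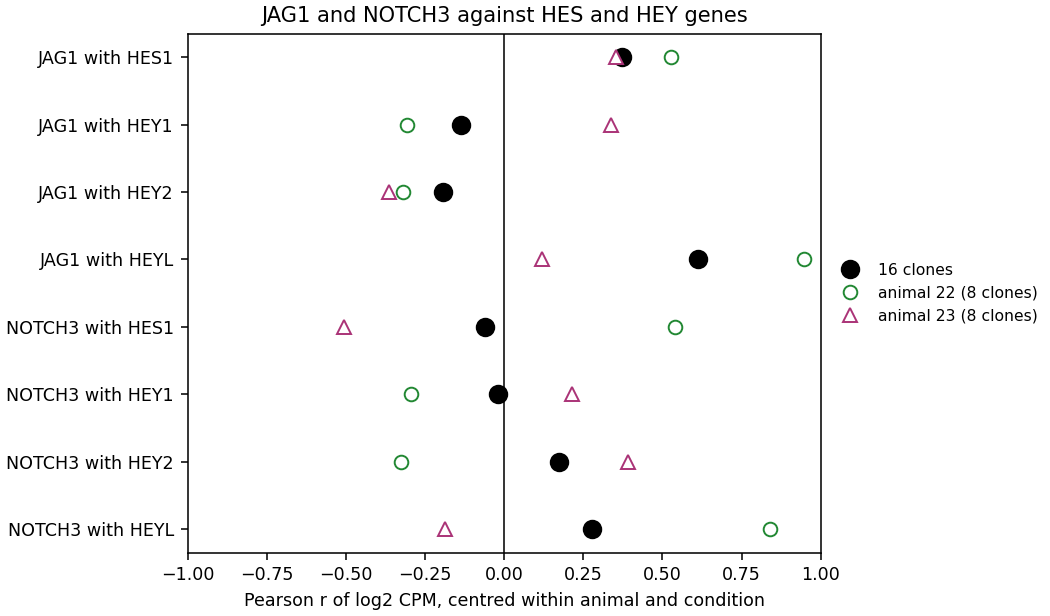
Pearson's r (horizontal axis, from -1 to 1) of log2 CPM, centred within animal and condition, for JAG1 and NOTCH3 against each target gene. Filled circles are the 16 clones of animals 22 and 23 together and open symbols are each animal alone. In 5 of 8 pairs, NOTCH3 and HES1 among them, the animals lay on opposite sides of 0.

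Besides the 10 genes, 52 further genes of the pathway were listed by role, of which 40 were tested. In A clones 4 rose, 7 fell and 29 did not pass the threshold, with a median log2 fold change of -0.04. The called share of 27.5% compares with the 20.6% of all genes. Each role has few genes, so its count below, which stands beside the same 20.6%, is not read as a result about the role. This list was also drawn up with earlier results of these data known. DLK1, a noncanonical ligand known as an inhibitor of adipogenesis, and the target gene HES5 had 0 counts in all 20 clones.

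Among genes of receptor glycosylation, which tunes the choice of ligand, 1 of 4 tested was called. RFNG, a Fringe enzyme, ranged from 46.9 to 73.4 CPM in N clones and from 62.5 to 85.6 CPM in A clones and rose by a log2 fold change of 0.35 (SE 0.0884, adjusted p = 0.0121). MFNG, another Fringe gene, was left out by the filter, with a median of 0.0595 CPM in N clones (0 to 0.565) and of 0.489 CPM in A clones (0.131 to 1.95), and with no filter it rose (2.82, SE 0.756, adjusted p = 0.0217). LFNG, the Fringe gene with the highest mean CPM of this group, had a log2 fold change of 0.59 (adjusted p = 0.275). NOTCH4, the only other receptor, had a log2 fold change of -0.05 (adjusted p = 0.887).

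Of 9 genes of receptor cleavage tested, 1 rose and 1 fell. FURIN, the protease that cuts the receptor on its way to the cell surface, rose (0.69, SE 0.235, adjusted p = 0.0467), and APH1A, a subunit of gamma-secretase, fell (-0.44, SE 0.110, adjusted p = 0.0121). The call for FURIN was lost in 13 of 20 fits with 1 clone left out (adjusted p up to 0.101). The other 7, among them ADAM10, ADAM17 and the presenilins, did not pass the threshold.

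In the nuclear complex, 2 of 7 genes fell and 0 rose. MAML1 and MAML2, Mastermind coactivators, fell (-0.44, adjusted p = 0.0239, and -0.62, adjusted p = 0.00572), whereas RBPJ, which binds the DNA, had a log2 fold change of 0.20 (SE 0.232, adjusted p = 0.552). Of 8 corepressors, 1 fell and 0 rose. TLE3, a Groucho-type corepressor, ranged from 31.9 to 107.6 CPM in N clones and from 28.4 to 49.1 CPM in A clones and fell (-0.76, SE 0.177, adjusted p = 0.00838), and NCOR1 had a log2 fold change of -0.10 (adjusted p = 0.416).

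Of 9 trafficking and turnover genes tested, 1 rose and 3 fell. NUMB, an endocytic adaptor known as an inhibitor of Notch receptors, ranged from 83.4 to 125.2 CPM in N clones and from 98.0 to 202.1 CPM in A clones and rose (0.57, SE 0.125, adjusted p = 0.00600). The genes that fell encode ubiquitin ligases. DTX3 fell most (-0.67, SE 0.130, adjusted p = 0.00325), followed by MIB2 (-0.41, adjusted p = 0.00969) and DTX2 (-0.38, adjusted p = 0.0488). The call for DTX2 was lost in 15 of 20 fits with 1 clone left out and with DESeq2 size factors or no filter.

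Of the other HES genes and NRARP, 2 were tested and 1 rose. HES4 had a median of 0.132 CPM in N clones (0 to 4.52) and of 0.948 CPM in A clones (0.184 to 6.61), and its log2 fold change was 2.59 (SE 0.749, adjusted p = 0.0235). It had 0 to 105 counts in a clone, and 2 A clones exceeded all N clones. A minus N was -2.44, 1.42, 3.43 and 1.84 on the log2 scale in animals 17, 20, 22 and 23. The call held in 20 of 20 fits with 1 clone left out and was lost in 5 of 11 other alternatives. HES2 had a log2 fold change of -0.32 (adjusted p = 0.627). NRARP, a feedback inhibitor that Notch signalling induces, was left out by the filter, with -1.03 in the fit without it (adjusted p = 0.257).

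**Figure D5:**
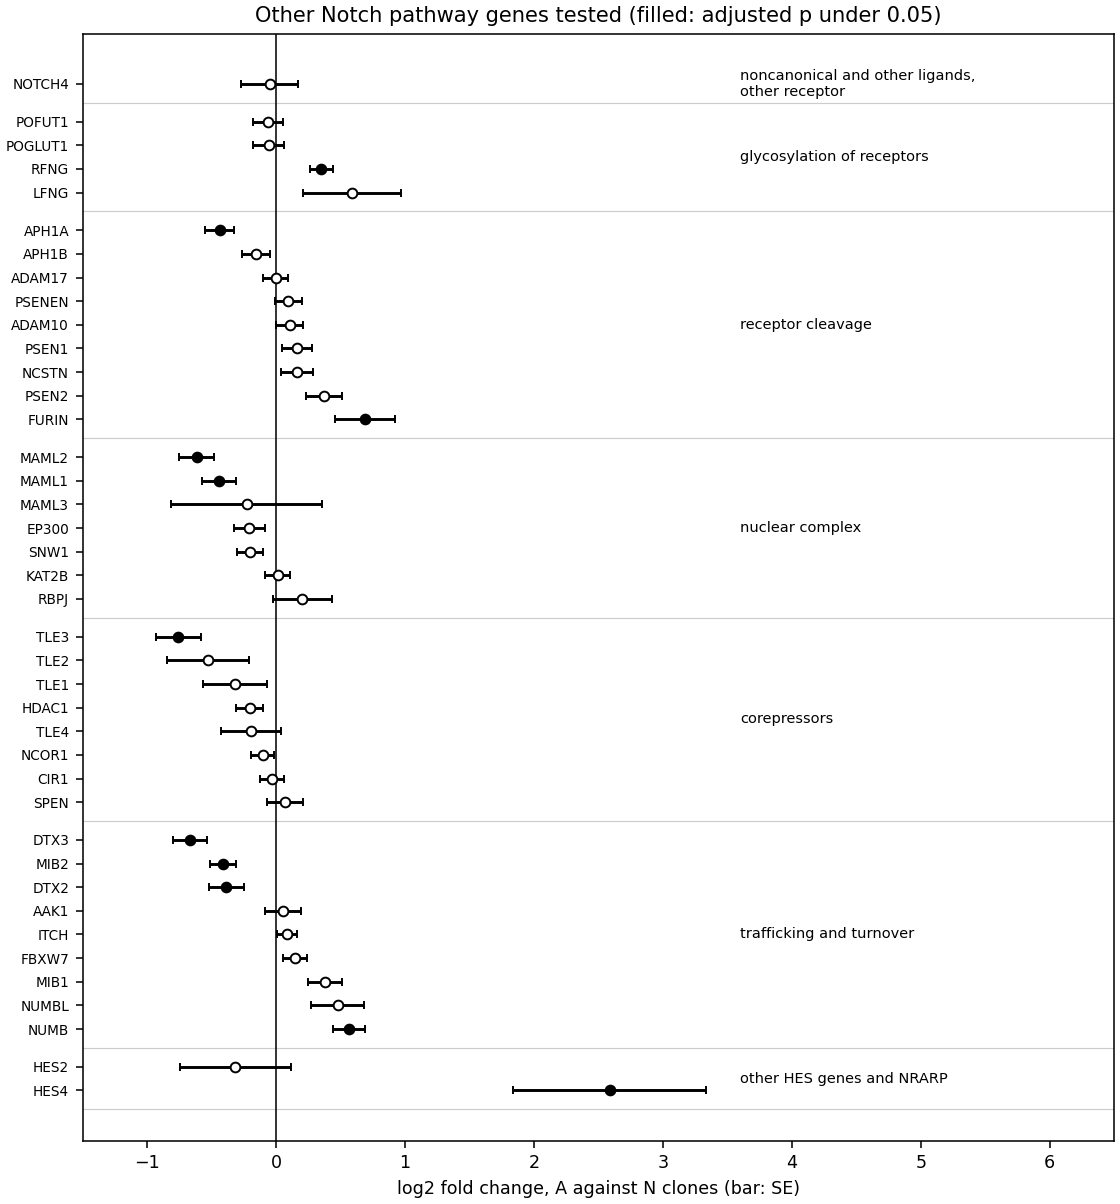
Log2 fold change of A over N clones (horizontal axis, bars are SE) for the 40 further pathway genes tested, grouped by role and filled where the adjusted p was under 0.05. HES4 lies farthest from 0 and the other genes lie within 1 log2 unit of it.

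The cell identity of the clones was checked on marker lists, whose calls stand beside 20.6% of all genes called and 10.3% called higher. All 6 MSC surface markers (ITGB1, NT5E, CD44, THY1, ENG and PDGFRA) were tested and 0 passed the threshold. Their sums were 2729 to 5077 CPM in N clones and 3308 to 5425 CPM in A clones. These lay mostly in ITGB1 and CD44 (means of 2393 and 794 CPM). NT5E, THY1 and ENG went as low as 0.508, 0.395 and 19.1 CPM in N clones. In A clones their lowest levels were 65.2, 18.0 and 242.4 CPM. Of 6 leukocyte markers, 0 passed the filter. They summed to 0.146 to 7.74 CPM in N clones with 0.246 as the median, and to 0.732 to 6.43 CPM in A clones with 2.69 as the median, and LYZ was at 0 in all clones. With no filter, CSF1R (3.13, adjusted p = 0.00268) and CD14 (2.75, adjusted p = 0.0417) rose, in a fit that called 11.8% of its genes. CSF1R ranged from 0.476 to 2.38 CPM in A clones and from 0 to 0.255 CPM in N clones, with at most 35 counts in a clone. PTPRC and ITGAM had at most 7 and 2 counts in a clone.

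Of 10 mural markers, 8 were tested, of which 2 rose in A clones and 0 fell, beside 10.3% of all genes called higher. Those called were CSPG4 (1.76, adjusted p = 0.0134) and MYH11 (3.04, adjusted p = 0.0484). The 8 had a median log2 fold change of 1.19, beside -0.01 over all genes tested. The call for MYH11 was lost in 15 of 20 fits with 1 clone left out. The sum of the 10 markers lay mostly in ACTA2 and TAGLN (means of 2582 and 2685 CPM) and says little of the others. It ranged from 1093 to 10054 CPM in N clones and from 4367 to 11708 CPM in A clones. The pericyte markers RGS5 and KCNJ8 had a mean below 1 CPM. N clones 17-23 and 20-15, the N clones with most NOTCH3 and JAG1, had mural sums of 3165 and 1819 CPM, below the N median of 3727 CPM. N clone 22-18 had the highest mural sum of the N clones, 10054 CPM, with 4.48 CPM of NOTCH3. Since these sums say little of markers other than ACTA2 and TAGLN, they do not show how NOTCH3 goes with mural markers. That relation was not tested.

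Of 8 endothelial markers, 5 were tested and ERG rose (2.51, adjusted p = 0.0323), with sums of 1.41 to 54.7 CPM in N clones and 9.65 to 105.9 CPM in A clones and with CDH5, KDR and TIE1 below a mean of 1 CPM. N clones 17-23 and 20-15 had the highest endothelial sums of the N clones, 54.7 and 47.6 CPM. Of 8 mesothelial markers, 6 were tested and MSLN fell (-1.97, adjusted p = 0.0393), a call lost in 12 of 20 fits with 1 clone left out and without N clones 22-5 and 22-9 (-0.91, adjusted p = 0.393). Sums ranged from 8.82 to 276.5 CPM in the N clones other than 22-5 and 22-9 and from 7.73 to 1095 CPM in A clones.

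Of 7 adipocyte markers, 4 were tested, and PPARG (3.77, adjusted p = 0.00486) and PLIN1 (0.53, adjusted p = 0.0456) rose, beside 10.3% of all genes called higher. The call for PLIN1 was lost in 14 of 20 fits with 1 clone left out. FABP4 (0.94, adjusted p = 0.357) and CIDEC (-0.64, adjusted p = 0.129) did not pass the threshold. With no filter, ADIPOQ rose (2.75, adjusted p = 0.0175), and CEBPA (1.77, adjusted p = 0.137) and LEP (2.39, adjusted p = 0.0734) did not pass it. Of 7 proliferation markers, all were tested and MKI67, TOP2A and CDK1 fell (-1.77, -1.42 and -1.37), with sums of 117.5 to 532.8 CPM in N clones and 36.1 to 336.4 CPM in A clones. The part of leukocyte, mural, endothelial, mesothelial and proliferation markers in the differences of the Notch genes was not tested.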

How the data were processed

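The values deposited by the authors were raw counts, 1 column per clone. Per the submitters' processing notes, the tools were bcl2fastq 2.20, Trimmomatic 0.36, STAR 2.5.2b and featureCounts of Subread 1.5.2, with genome build ARS-UCD1.2, and the study's methods state that unique reads within exons were counted. The library kit was directional, but the strand setting of the counting was not given in the sources used here. In RefSeq's annotation of another assembly, ARS-UCD2.0, JAG1 and NOTCH2 each overlap 1 pseudogene that has no row in the count table, so how such reads were counted is uncertain. Neither coordinates nor sequences were used here. A row with no gene name, with 0.113% to 0.333% of the counts of a clone, was left out. There were 0 columns of samples from outside the series.

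From these counts, edgeR 4.0.16 in R 4.3.3 was run on all 20 clones (TMM, default filter on the condition, robust quasi-likelihood F test). Animal was a block, as in the study's paired design, and p-values had Benjamini-Hochberg adjustment. The filter kept 12900 of 23383 genes with at least 1 count. Log2 CPM used a prior count of 2. The pairing comes from the animals, and the correlation between its A and N clones of their deviations from the group mean was 0.253 for animal 17, 0.193 for 20, 0.241 for 22 and 0.440 for 23. The interaction was fitted on the 16 clones of animals 22 and 23. Relations were tested with 100000 permutations within animal and condition and adjusted over 8 relations.

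The 10 genes and all lists were chosen with earlier results of these data known. Named pathway genes are those past the threshold and the gene with the highest mean CPM of each role, and for likeness the 5 genes of highest Pearson's r. The result of 1 listed pathway gene is not reported here, and it was left out of the list's counts. Any other gene or clone named was chosen after values were seen. Alternatives were no block, normalization by upper quartile or by DESeq2 size factors, no filter, a minimum of 10 counts in every clone, DESeq2 1.42.0, limma-voom (limma 3.58.1) with animal as a random effect, counts summed per animal and condition, animal 22 or 23 alone, and leaving out single animals or clones. Fits of animals 22 and 23 and without N clones 22-5 and 22-9, the interaction over 4 animals, the correlation of JAG1 and NOTCH3 and the count of genes with A above N clones in both animals were added after seeing the data. Tested on simulated counts with 200 changed genes, the comparison of A and N clones recovered 96% with 9 false calls among 12900 genes. Every planted log2 fold change was larger in size than those fitted for JAG1, DLL1, NOTCH1, NOTCH2, HES1, HEY1 and HEYL. The 96% thus gives no recovery for changes of their size. Recovery was not split by size of the log2 fold change, and false calls where clones share an animal were not tested.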

Additional observations from a re-analysis of the deposited data

Results flagged for a closer look

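The difference between A and N clones in JAG1 lay on opposite sides of 0 in different animals. A minus N on the log2 scale was -0.85 in animal 17, against 0.52 in animal 20, 2.88 in animal 22 and 2.35 in animal 23, with every A clone of animals 20, 22 and 23 above every N clone of the same animal. HEY2 had -3.52 in animal 17, against 0.65 in animal 20 and 3.16 in animal 22, with A clones above N clones in the latter pair. In animal 23 it had 2.37, with overlapping clones. Animals 17 and 20 had 1 clone per group, and the HEY2 values rest on 20 counts against 0 in animal 17 and 5 against 11 in animal 20. For JAG1 the interaction over 4 animals had an adjusted p of 0.438 by edgeR's quasi-likelihood test, and for HEY2 the difference between animals was not tested.

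A single clone far from the rest of its group was looked for in 20 groups of 10 log2 CPM values, and 0 were found by Dixon's criterion, where chance gives about 1 in 20.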

How the results depend on the processing

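The calls for JAG1 and NOTCH3 were lost without animal 22 or 23, and that for NOTCH1 without animal 20 or 23. The number of genes called of the 8 tested was 3 with the block, 1 with no replicate block (NOTCH1, while JAG1 had 1.37, adjusted p = 0.0844, and NOTCH3 1.98, adjusted p = 0.0794), 0 with counts summed per animal and condition, 0 without animal 23, 1 in animal 22 alone (HEY2, tested there) and 1 in animal 23 alone (JAG1). With the sums, 0 of all genes were called and 2243 had an unadjusted p under 0.05, 5 of them among the 10 genes. The count was 2 to 5 with 1 clone left out, the 5 being without N clone 22-18. In animals 22 and 23 together, NOTCH3 (3.55, adjusted p = 0.00312) and JAG1 (2.34, adjusted p = 0.00559) were called and NOTCH1 was not (0.79, adjusted p = 0.0910). limma-voom also called DLL1 (2.36, adjusted p = 0.0219). The count of further pathway genes, 11, became 0 with the sums, 6 without animal 22, 0 without animal 23, 0 in animal 22 alone, 1 in animal 23 alone, 7 in animals 22 and 23 together and 7 without N clones 22-5 and 22-9. The cause of these moves was not tested, beyond the fewer samples of each such fit. Over all genes, 2658 were called, against 4120 by DESeq2, 1471 without animal 22, 32 without animal 23, 153 in animal 22 alone and 800 in animal 23 alone. The interaction and the relations had 0 calls under every alternative run.

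Log2 fold changes of NOTCH3, JAG1, NOTCH1, NOTCH2, DLL1, HES1, HEY1 and HEY2 kept their sign under every alternative run. Genes that were not called changed sign. NOTCH4 had 0.0121 with limma-voom, 0.11 with the sums and 0.0089 without animal 22, and without N clones 22-5 and 22-9 it had 0.0725. HES2 had 0.12 with limma-voom, 0.22 without animal 22 and 0.30 in animal 23 alone, and without those clones it had 0.55. NCOR1 had 0.00591 with the sums and 0.0370 without animal 22. HEYL had -0.0512 without those clones, -0.000131 without animal 22 and -0.0119 in animal 23 alone, and JAG2 had -0.14 without animal 23 and -0.58 in animal 22 alone. In animal 22 alone LFNG had -0.24 and RBPJ -0.31. With 1 clone left out, values ran from -0.15 to 0.0357 for NOTCH4, -0.44 to 0.0904 for HES2 and -0.46 to 1.12 for HEYL.

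Of the relations, that of JAG1 and HEY1 (r = -0.14) was 0.439 without the 2 farthest clones and 0.337 in animal 23 alone. NOTCH3 and HES1 had 0.414 without the farthest clones and 0.541 in animal 22, NOTCH3 and HEY1 0.358 and, in animal 23, 0.216, NOTCH3 and HEY2 -0.33 in animal 22, and NOTCH3 and HEYL -0.19 in animal 23. Few counts of JAG2, HEY2 and DLL1 limit what depth can show for them.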
